A study of Homo sapiens with 8 samples.

Results

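NFE2L2, the gene of the transcription factor NRF2, and 8 genes commonly listed as its targets were followed: HMOX1, NQO1, GCLC, GCLM, TXNRD1, SRXN1, OSGIN1 and ME1. The members were listed by name and found through the transcript accessions of the authors' table. Each stood at 1 locus of its own, so 9 of 9 members were measured among 27757 loci. All 9 were also among the 12112 loci that reached at least 1 FPKM (fragments scaled to transcript length and library size) in at least 2 libraries and were tested.

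NRF2 is made continuously and held low by KEAP1, an adaptor that hands it to a CUL3 ubiquitin ligase. Oxidants and electrophiles modify KEAP1, after which NRF2 accumulates, pairs with a small MAF protein and binds antioxidant response elements in its target genes, so its activity is known to be set largely at the protein level. HMOX1 encodes heme oxygenase 1, which opens heme to biliverdin, carbon monoxide and iron, and is also known to answer to the heme-sensitive repressor BACH1 and to AP-1 factors.

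OVISE is a human cell line from a clear cell carcinoma of the ovary. The 4 groups of 2 libraries each were SYK-KO EGF (SYK knocked out, epidermal growth factor at 50 ng/ml for 24 h), SYK-KO (knocked out, no treatment), SYK-WT EGF (wild-type SYK, the same EGF) and SYK-WT (wild type, no treatment). SYK is a cytoplasmic tyrosine kinase, and the series asks how its activity bears on transcription downstream of the EGF receptor. The labels describe knockout with a Cas9 nickase and paired guides to an early exon, puromycin selection, single-cell cloning and an immunoblot. They do not say how many knockout clones were sequenced, whether the wild-type cells were also cloned, or whether replicates were cultured separately. Genotype and clone therefore cannot be told apart, and a p-value here reflects no more than how much these libraries varied.

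Depth, estimated from the smallest steps of low values, was about 22800000 to 26800000 fragments per library, which put about 428 to 15948 fragments behind a member's value in a library. The SYK transcript was at 2.80 and 3.16 FPKM in SYK-KO EGF, 3.11 and 3.43 FPKM in SYK-KO, 3.88 and 3.62 FPKM in SYK-WT EGF, and 4.91 and 5.30 FPKM in SYK-WT. It was lower in both knockout groups than in their wild-type counterparts but was not absent, and the level of a transcript does not test a knockout made by small indels. Of 6 clear cell carcinoma markers, 5 were at 1 FPKM or more in every library, and NAPSA fell below that in SYK-KO replicate 2 (0.787 FPKM). Of 12 markers of other cells, 11 were under 1 FPKM in every library, COL3A1 and DCN among them at 0, and the sum over the 12 was 5.57 to 15.5 FPKM. The exception was ACTA2, an actin of smooth muscle and fibroblasts, at 10.3 and 12.1 FPKM in SYK-KO EGF, 13.5 and 14.8 FPKM in SYK-KO, 5.02 and 5.60 FPKM in SYK-WT EGF, and 7.37 and 10.2 FPKM in SYK-WT. It moved with the groups: by limma it was higher in SYK-KO than in SYK-WT (0.64 on the log2(FPKM + 1) scale, adjusted p = 0.00932) and with EGF (0.95, adjusted p = 0.00171), and lower after EGF in SYK-WT cells (-0.62, adjusted p = 0.0166), and its part in the results was not tested. The untreated genotype call ended without SYK-KO replicate 2 (adjusted p = 0.0608), and the EGF call under 4 alternatives (up to 0.104). In these bulk libraries, fewer cells with a transcript and less of it per cell cannot be told apart.

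Promoter windows, from 250 bases before to 50 bases after the annotated start, were read for 8 of 9 members (all but HMOX1) from RefSeq on GRCh38.p14, 10 windows in all. They are shown because NRF2 acts through the antioxidant response element, searched as TGACNNNGC on both strands, and AP-1, which lies downstream of EGF, through TGACTCA. Capitals mark a match, positions count from the start base as 1 with no position 0, and the windows read 5′ to 3′ on the gene's strand. The window of GCLM is chr1:93909381-93909680 on the minus strand and that of TXNRD1 chr12:104215529-104215828 on the plus strand. The window of OSGIN1 is chr16:83952990-83953289 on the plus strand and that of ME1 chr6:83431002-83431301 on the minus strand.
GCLM: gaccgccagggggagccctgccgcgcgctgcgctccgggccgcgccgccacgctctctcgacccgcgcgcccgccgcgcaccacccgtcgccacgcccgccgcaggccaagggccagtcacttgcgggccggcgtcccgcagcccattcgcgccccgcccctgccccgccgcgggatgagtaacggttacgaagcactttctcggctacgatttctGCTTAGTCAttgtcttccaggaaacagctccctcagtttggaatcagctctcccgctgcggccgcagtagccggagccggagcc
TXNRD1: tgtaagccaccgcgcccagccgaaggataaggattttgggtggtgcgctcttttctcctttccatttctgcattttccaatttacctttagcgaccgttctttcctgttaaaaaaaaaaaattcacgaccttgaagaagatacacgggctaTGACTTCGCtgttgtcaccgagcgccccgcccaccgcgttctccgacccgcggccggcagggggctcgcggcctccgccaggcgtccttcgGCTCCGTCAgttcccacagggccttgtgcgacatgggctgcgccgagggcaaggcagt
OSGIN1: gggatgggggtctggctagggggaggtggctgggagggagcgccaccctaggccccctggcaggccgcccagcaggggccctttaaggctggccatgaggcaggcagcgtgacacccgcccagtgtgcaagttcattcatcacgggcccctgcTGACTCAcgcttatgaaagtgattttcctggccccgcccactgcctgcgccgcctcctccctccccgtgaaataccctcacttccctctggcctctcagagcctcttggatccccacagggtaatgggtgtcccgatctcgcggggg
ME1: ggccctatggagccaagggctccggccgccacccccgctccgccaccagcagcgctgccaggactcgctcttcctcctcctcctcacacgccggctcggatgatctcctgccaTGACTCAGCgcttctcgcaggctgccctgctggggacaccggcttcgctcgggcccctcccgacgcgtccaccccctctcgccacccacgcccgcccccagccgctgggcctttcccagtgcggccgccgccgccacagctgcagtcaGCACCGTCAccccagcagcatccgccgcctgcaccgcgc

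The antioxidant response element letters stood in windows of 3 of the 8 members. GCLM held GCTTAGTCA, the element read on the opposite strand, from -34 to -26. The first TXNRD1 window held TGACTTCGC from -99 to -91 and, on the opposite strand, GCTCCGTCA from -8 to 1, and the second, at chr12:104286782-104287081, held GCTTTGTCA from -102 to -94. ME1 held TGACTCAGC from -137 to -129, whose first letters are also an AP-1 element, and GCACCGTCA from 12 to 20. OSGIN1 held TGACTCA alone, from -97 to -91. Background shares took only the first listed window of each gene. Over 27305 genes of the reference, 13.6% held the antioxidant response element letters and 4.92% the AP-1 letters. Over 9362 genes at tested loci the shares were 15.5% and 3.04%. The members were searched in all their windows. TXNRD1 matched in its first window, so 3 of the 8 members is also the count by first windows. A match is a match of letters, not a measured site, and the windows of NQO1, GCLC, SRXN1 and NFE2L2 held neither motif. Sequence outside the windows was not searched, so a gene without a match here may hold an element elsewhere. The members with matches did not share a pattern of expression, since GCLM and TXNRD1 were highest in SYK-KO EGF, OSGIN1 in SYK-WT EGF, and ME1 passed the threshold in no comparison.

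HMOX1 was the member that moved most: its level spanned an 11.1-fold range over the 8 libraries, while the other 8 members spanned 1.24-fold (NFE2L2) to 2.37-fold (OSGIN1). After EGF, 4 of 9 members rose in SYK-KO cells and 6 of 9 in SYK-WT cells. In knockout cells HMOX1 was higher than in wild-type cells with and without EGF, whereas OSGIN1 was lower in both settings and GCLC and SRXN1 were lower with EGF. NQO1, ME1 and NFE2L2 itself passed the threshold in no comparison. Changes are differences of log2(FPKM + 1), which understate the fold of low levels, tested with limma over all 12112 loci at a Benjamini-Hochberg adjusted p of 0.05.

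These counts stand against broad changes in the whole transcriptome. For EGF in SYK-KO cells, 11.8% of all loci passed, 6.67% higher and 5.13% lower, and 4 of 9 members were higher (HMOX1, TXNRD1, OSGIN1 and GCLM). For EGF in SYK-WT cells, 26.7% of all tested loci passed the threshold, 14.7% higher and 12.1% lower, and 6 of 9 members were higher (HMOX1, OSGIN1, SRXN1, TXNRD1, GCLC and GCLM). For SYK-KO against SYK-WT without EGF, 40.5% of loci passed, 20.3% higher and 20.2% lower, and 2 of 9 members did, HMOX1 higher and OSGIN1 lower. With EGF, 43.6% passed, 21.1% higher and 22.5% lower, and 4 of 9 members did, HMOX1 higher and OSGIN1, GCLC and SRXN1 lower. The member shares between genotypes were thus near or below those of all loci. The median difference of the 9 members was 0.23 for EGF in SYK-KO cells, 0.30 for EGF in SYK-WT cells, -0.13 for SYK-KO against SYK-WT and -0.10 for the same with EGF. Over all tested loci these medians lay between -0.02 and 0.01. Comparisons that share a group of libraries are not independent of each other.

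**Figure D1:**
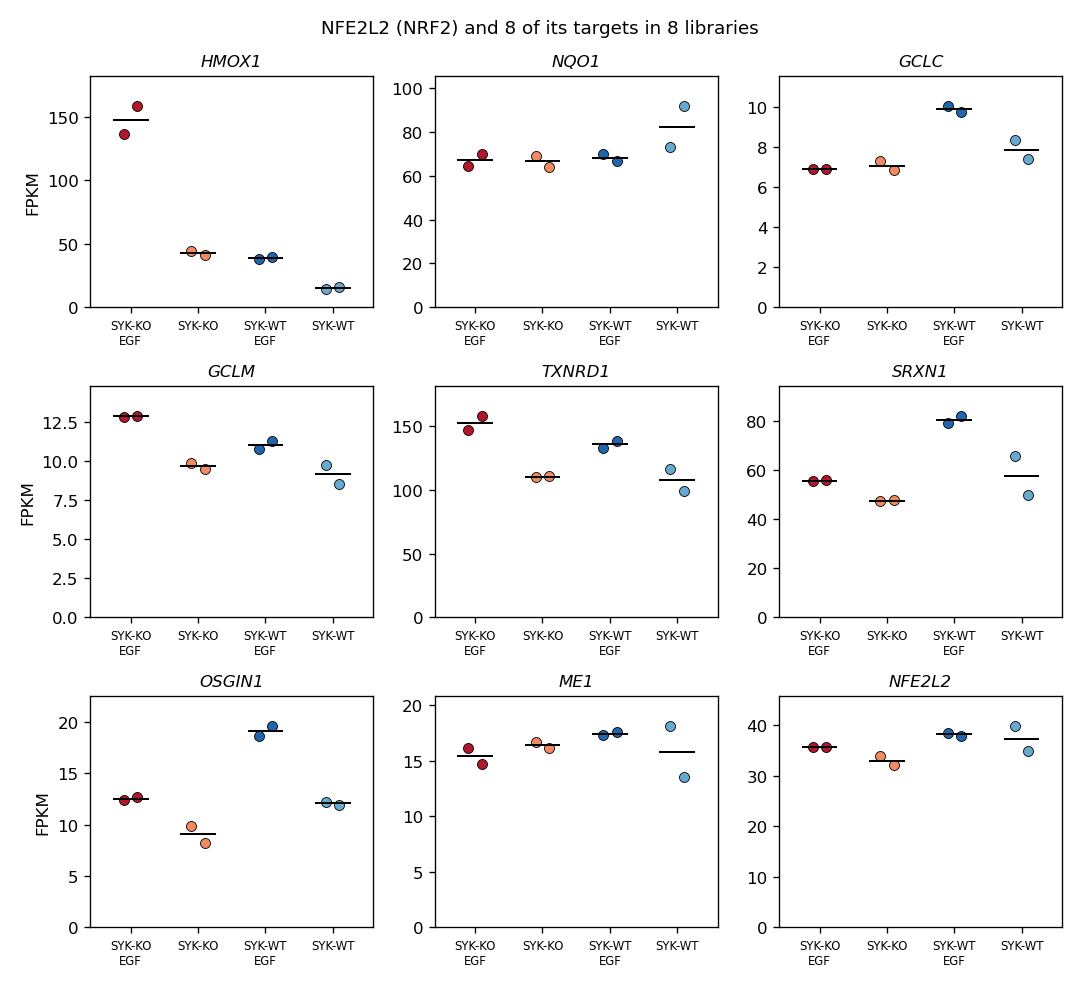
FPKM of each member in the 8 libraries, a panel per gene with its own axis from 0. Points are libraries and short lines are means of 2. HMOX1 is highest in SYK-KO EGF (136.5 and 158.0 FPKM) and lowest in SYK-WT (14.26 and 16.21 FPKM), while NQO1, ME1 and NFE2L2 stay in a narrow range.

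NFE2L2 was expressed at a similar level in every library. It measured 35.65 and 35.66 FPKM in SYK-KO EGF, 33.82 and 32.13 FPKM in SYK-KO, 38.47 and 37.91 FPKM in SYK-WT EGF, and 39.77 and 34.92 FPKM in SYK-WT. The untreated knockout libraries were the lowest of the 8, and SYK-WT replicate 1 was the highest, with replicate 2 of that group below both SYK-WT EGF libraries and both SYK-KO EGF libraries. EGF left differences of 0.11 in SYK-KO cells (95% interval -0.06 to 0.28, limma adjusted p = 0.388) and 0.03 in SYK-WT cells (-0.14 to 0.21, adjusted p = 0.756). SYK-KO against SYK-WT gave -0.17 without EGF (-0.34 to -0.0009, adjusted p = 0.0979) and -0.10 with EGF (-0.27 to 0.07, adjusted p = 0.317). Without SYK-WT replicate 2 the untreated genotype difference was -0.26 and passed the threshold (adjusted p = 0.00866). NFE2L2 is annotated on hg19 at 2:178095030-178129859. The transcript level says nothing of the amount of NRF2 protein, which was not measured.

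Among 14 genes that control NRF2, 13 were tested. After EGF, 5 rose and 0 fell in SYK-KO cells, and 7 rose and 0 fell in SYK-WT cells. In SYK-KO against SYK-WT, 0 rose and 4 fell without EGF, and 1 rose and 6 fell with EGF. After EGF, 6.67% of all loci rose and 5.13% fell in SYK-KO cells, and 14.7% and 12.1% in SYK-WT cells. By genotype, 20.3% of all loci rose and 20.2% fell without EGF, and 21.1% and 22.5% with EGF. The list's medians were 0.18 and 0.27 for EGF in SYK-KO and SYK-WT cells, and -0.11 and -0.17 for genotype without and with EGF. KEAP1 measured 18.4 and 19.7 FPKM in SYK-KO EGF, 21.7 and 22.4 FPKM in SYK-KO, 13.8 and 15.0 FPKM in SYK-WT EGF, and 15.5 and 19.96 FPKM in SYK-WT. It was highest in untreated knockout cells and was the only list gene higher in knockout cells, with EGF (0.38, adjusted p = 0.025); that call ended, with adjusted p up to 0.134, when any 1 of the 4 EGF libraries was left out or low loci were kept. BACH1, the repressor that competes with NRF2 for small MAF partners, was at 4.10 to 6.495 FPKM and passed for EGF in SYK-WT cells (0.34, adjusted p = 0.0354) and, lower, for SYK-KO against SYK-WT with EGF (-0.32, adjusted p = 0.0296). Both calls ended under several alternatives, with adjusted p up to 0.157 and 0.127, among them leaving out any 1 of the 4 EGF libraries. The small MAF gene MAFK rose after EGF in both genotypes (0.68 in SYK-KO cells and 0.60 in SYK-WT cells, adjusted p = 0.00446 and 0.00404), at an interval it shares with TMEM184A. MAFF, another small MAF gene, also rose after EGF in both genotypes (0.52 in SYK-KO cells and 0.36 in SYK-WT cells, adjusted p = 0.00281 and 0.00626), and the difference of the responses did not pass (0.15, adjusted p = 0.663). It was lower in SYK-KO than in SYK-WT (-0.46, adjusted p = 0.00134) and with EGF (-0.30, adjusted p = 0.00735). Without SYK-WT EGF replicate 1, its rise in SYK-WT cells and its difference with EGF no longer passed (adjusted p = 0.0569 and 0.0561).

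GCLC and GCLM encode the catalytic and modifier subunits of glutamate-cysteine ligase, the rate-limiting enzyme of glutathione synthesis, and their transcripts did not follow each other. GCLC (hg19 6:53362139-53409927) measured 6.92 and 6.89 FPKM in SYK-KO EGF, 7.28 and 6.85 FPKM in SYK-KO, 10.0 and 9.74 FPKM in SYK-WT EGF, and 8.32 and 7.37 FPKM in SYK-WT. Both SYK-WT EGF libraries stood above the other 6, among which the groups lay close together. GCLC was lower in SYK-KO EGF than in SYK-WT EGF (-0.46, SE 0.08, limma adjusted p = 0.00267), which passed in all 15 other settings tried. It rose after EGF in SYK-WT cells by 0.30 (SE 0.08, adjusted p = 0.0251), but that call ended in 5 of 15 other settings. It ended with only those 2 groups fitted (adjusted p = 0.108) and with library quality weights (adjusted p = 0.0684). It also ended without SYK-WT EGF replicate 1 (0.28), SYK-WT EGF replicate 2 (0.32) or SYK-WT replicate 2 (0.22), with the difference in brackets. In SYK-KO cells EGF gave -0.03 (95% interval -0.21 to 0.15), and untreated SYK-KO against SYK-WT gave -0.13 (-0.31 to 0.05).

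GCLM (hg19 1:94350755-94375154) measured 12.85 and 12.86 FPKM in SYK-KO EGF, 9.85 and 9.47 FPKM in SYK-KO, 10.8 and 11.3 FPKM in SYK-WT EGF, and 9.72 and 8.56 FPKM in SYK-WT. The order of groups was SYK-KO EGF, SYK-WT EGF, then SYK-KO and SYK-WT, whose libraries overlapped. GCLM rose after EGF by 0.38 in SYK-KO cells (SE 0.08, adjusted p = 0.018) and by 0.25 in SYK-WT cells (SE 0.08, adjusted p = 0.0458). The rise in SYK-WT cells lay at the threshold and ended in 11 of 15 other settings, with adjusted p up to 0.216. That in SYK-KO cells ended when any 1 of its 4 libraries was left out, with adjusted p up to 0.152 and a difference still of 0.35 to 0.41. SYK-KO against SYK-WT did not pass, at 0.07 without EGF (-0.10 to 0.25) and 0.20 with EGF (0.03 to 0.38, adjusted p = 0.0596), where the libraries did not overlap. The value with EGF passed in 4 other settings (adjusted p = 0.015 to 0.0282): without either SYK-WT library, with only those 2 groups fitted, and with library quality weights.

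Other glutathione genes fell more often than they rose after EGF, and those that differed by genotype were mostly higher in knockout cells. Of 23 listed, 20 were tested: 1 rose and 6 fell after EGF in SYK-KO cells, 4 rose and 7 fell in SYK-WT cells, and 12 were higher and 2 lower in SYK-KO than in SYK-WT. With EGF, 9 were higher and 2 lower in SYK-KO EGF than in SYK-WT EGF. Among all loci, 6.67% rose and 5.13% fell after EGF in SYK-KO cells, and 14.7% and 12.1% in SYK-WT cells. By genotype, 20.3% of all loci were higher and 20.2% lower without EGF, and 21.1% and 22.5% with EGF. GSR, glutathione reductase, fell after EGF in SYK-WT cells (-0.78, adjusted p = 0.000441), with 35.5 and 37.5 FPKM in SYK-WT EGF against 61.3 and 65.3 FPKM in SYK-WT. It also fell after EGF in SYK-KO cells (-0.47, adjusted p = 0.00704, but up to 0.0777 when SYK-KO EGF replicate 1 or SYK-KO replicate 2 was left out). GSR was one of the genes lower in knockout cells, by -0.67 without EGF (adjusted p = 0.000428) and -0.35 with it (adjusted p = 0.00621, and 0.0533 without SYK-WT EGF replicate 2). SLC7A11, the cystine carrier of the xCT exchanger, was higher in SYK-KO than in SYK-WT by 1.05 (adjusted p = 0.000187), with 3.61 and 3.65 FPKM against 1.42 and 1.08 FPKM, and by 0.87 with EGF (adjusted p = 0.000417). SLC7A11 rose after EGF in SYK-WT cells (0.43, adjusted p = 0.0137, and 0.0975 without SYK-WT EGF replicate 1). GPX3, an extracellular glutathione peroxidase, was higher in SYK-KO than in SYK-WT by 1.18 (adjusted p = 0.000152) and by 0.84 with EGF (adjusted p = 0.000621). The list median was -0.20 for EGF in SYK-KO cells, -0.15 for EGF in SYK-WT cells, 0.40 for SYK-KO against SYK-WT and 0.31 for SYK-KO EGF against SYK-WT EGF. Glutathione transferases have near-identical copies, so their values are uncertain.

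TXNRD1, the cytosolic thioredoxin reductase that keeps thioredoxin reduced, had the highest mean level of the 9 members in every group on the FPKM scale, which is per length. TXNRD1 (hg19 12:104609556-104744085) measured 147.4 and 157.9 FPKM in SYK-KO EGF, 110.2 and 110.8 FPKM in SYK-KO, 133.4 and 138.7 FPKM in SYK-WT EGF, and 116.9 and 99.0 FPKM in SYK-WT. All 4 EGF libraries stood above all 4 untreated libraries, and the untreated groups overlapped. It rose after EGF by 0.46 in SYK-KO cells (SE 0.08, limma adjusted p = 0.0127) and by 0.34 in SYK-WT cells (SE 0.08, adjusted p = 0.024), or 1.38-fold and 1.26-fold by means. Leaving out any 1 of the 4 libraries ended the call in SYK-KO cells (adjusted p up to 0.0986, difference 0.41 to 0.51). In SYK-WT cells the call ended with only those 2 groups fitted (adjusted p = 0.0915) and with no filter on low values (adjusted p = 0.051). It also ended without SYK-WT EGF replicate 1 or replicate 2 (differences of 0.36 and 0.31). SYK-KO against SYK-WT gave 0.04 without EGF (95% interval -0.16 to 0.23) and 0.16 with EGF (-0.03 to 0.36, adjusted p = 0.15), where the libraries did not overlap. The value with EGF passed in the same 4 settings as for GCLM (adjusted p = 0.0287 to 0.0473). A second listed gene, EID3, lies within the TXNRD1 interval and reached at most 0.1545 FPKM.

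SRXN1, the sulfiredoxin that repairs overoxidised peroxiredoxins, was highest in wild-type cells given EGF. SRXN1 (hg19 20:627267-634014) measured 55.4 and 56.1 FPKM in SYK-KO EGF, 47.4 and 47.7 FPKM in SYK-KO, 79.3 and 82.0 FPKM in SYK-WT EGF, and 65.9 and 49.7 FPKM in SYK-WT. The SYK-WT pair was wide apart and spanned both SYK-KO EGF libraries, while the other pairs were tight. SRXN1 was lower in SYK-KO EGF than in SYK-WT EGF (-0.52, SE 0.12, adjusted p = 0.00845), or 0.692 times the mean, and that call ended without SYK-WT EGF replicate 2 (adjusted p = 0.0548). It rose after EGF in SYK-WT cells (0.49, SE 0.12, adjusted p = 0.0186). That call ended with only those 2 groups fitted (adjusted p = 0.0818) and with no filter on low values (adjusted p = 0.0509). It also ended without SYK-WT EGF replicate 1 or replicate 2 (differences of 0.51 and 0.46). In SYK-KO cells EGF gave 0.23 (95% interval -0.04 to 0.49, adjusted p = 0.25), with libraries that did not overlap. That value passed without either SYK-WT library (adjusted p = 0.011 and 0.0109), where the fit no longer held that pair. Untreated SYK-KO against SYK-WT gave -0.26 (-0.53 to 0.0017, adjusted p = 0.101), and -0.46 without SYK-WT replicate 2 (adjusted p = 0.000504).

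Of 10 thioredoxin and peroxiredoxin genes, 9 were tested. After EGF, 0 changed in SYK-KO cells, against 4 that rose and 0 that fell in SYK-WT cells. Between genotypes, 3 rose and 1 fell in SYK-KO against SYK-WT, and 1 rose and 3 fell with EGF. Among all loci, 6.67% rose and 5.13% fell after EGF in SYK-KO cells, and 14.7% and 12.1% in SYK-WT cells. By genotype, 20.3% of all loci rose and 20.2% fell without EGF, and 21.1% and 22.5% with EGF. PRDX5, a peroxiredoxin of mitochondria and peroxisomes, was higher in SYK-KO than in SYK-WT (0.47, adjusted p = 0.000874) and with EGF (0.23, adjusted p = 0.0176, a call that ended without any 1 of the 4 EGF libraries, up to 0.0984). It rose after EGF in SYK-WT cells (0.33, adjusted p = 0.00656, and 0.051 without SYK-WT EGF replicate 1). PRDX3, the mitochondrial one, was lower in SYK-KO EGF than in SYK-WT EGF (-0.38, adjusted p = 0.00405) and without EGF (-0.33, adjusted p = 0.00799, and 0.0549 without SYK-KO replicate 2). The list median was -0.10 for EGF in SYK-KO cells and 0.12 for EGF in SYK-WT cells, and 0.18 and -0.07 for genotype without and with EGF.

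NQO1, the quinone reductase often read as a marker of NRF2 activity, did not pass in any comparison. NQO1 (hg19 16:69743303-69760571) measured 64.3 and 69.8 FPKM in SYK-KO EGF, 68.8 and 64.1 FPKM in SYK-KO, 69.6 and 66.6 FPKM in SYK-WT EGF, and 73.1 and 91.5 FPKM in SYK-WT. The 6 libraries outside SYK-WT lay between 64.1 and 69.8 FPKM, and both SYK-WT libraries lay above them, replicate 2 by far. The differences were 0.01 for EGF in SYK-KO cells (95% interval -0.23 to 0.26), -0.26 for EGF in SYK-WT cells (-0.51 to -0.02, adjusted p = 0.105), -0.30 for SYK-KO against SYK-WT (-0.54 to -0.05, adjusted p = 0.0556) and -0.02 for SYK-KO EGF against SYK-WT EGF (-0.27 to 0.22). With SYK-WT replicate 1 left out, the differences for EGF in SYK-WT cells and for untreated genotype were -0.42 and -0.46 and passed (adjusted p = 0.00335 and 0.00224). The upper ends of all 4 intervals, at most 0.26, lay below the smallest HMOX1 difference of 1.30.

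ME1, the cytosolic malic enzyme that makes NADPH from malate, also passed in no comparison. ME1 (hg19 6:83920109-84140938) measured 16.2 and 14.7 FPKM in SYK-KO EGF, 16.7 and 16.1 FPKM in SYK-KO, 17.3 and 17.6 FPKM in SYK-WT EGF, and 18.1 and 13.5 FPKM in SYK-WT. Its highest and lowest libraries were the 2 of SYK-WT. The groups overlapped in every comparison but SYK-KO EGF against SYK-WT EGF. The widest difference was -0.16, for that comparison (95% interval -0.44 to 0.11, limma adjusted p = 0.296), and it passed without SYK-WT replicate 1 (adjusted p = 0.0481) or replicate 2 (adjusted p = 0.0475). With SYK-WT replicate 1 left out, EGF in SYK-WT cells gave 0.34 (adjusted p = 0.00778) and SYK-KO against SYK-WT 0.26 (adjusted p = 0.0233). With SYK-WT replicate 2 left out, the same differences were -0.05 and -0.14 and did not pass.

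Among 11 other genes of NADPH supply, 10 were tested, and in each genotype comparison 5 rose and 2 fell. After EGF, 1 rose and 1 fell in SYK-KO cells, and 2 rose and 2 fell in SYK-WT cells. By genotype, 20.3% of all loci rose and 20.2% fell without EGF, and 21.1% and 22.5% with EGF. Among all loci, 6.67% rose and 5.13% fell after EGF in SYK-KO cells, and 14.7% and 12.1% in SYK-WT cells. PGLS, an enzyme of the pentose phosphate pathway, was higher in SYK-KO than in SYK-WT by 0.82 (adjusted p = 0.000525) and by 0.83 with EGF (adjusted p = 0.000474). It measured 132.1 and 132.5 FPKM in SYK-KO EGF, 133.6 and 125.7 FPKM in SYK-KO, 75.6 and 72.1 FPKM in SYK-WT EGF, and 66.1 and 80.5 FPKM in SYK-WT, so every knockout library lay above every wild-type one. MTHFD2, a mitochondrial folate enzyme, rose after EGF in SYK-WT cells (0.57, adjusted p = 0.00232) and was higher in SYK-KO than in SYK-WT (0.49, adjusted p = 0.00248). Its rise in SYK-KO cells (0.31, adjusted p = 0.0417) and its difference with EGF (0.24, adjusted p = 0.0416) ended when any 1 of the libraries compared was left out (adjusted p up to 0.228 and 0.237). The list medians were 0.03 and -0.06 for EGF in SYK-KO and SYK-WT cells, and 0.31 and 0.15 for genotype without and with EGF.

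Of 18 other detoxification and efflux genes, 9 were tested. EPHX1, microsomal epoxide hydrolase, was higher in SYK-KO than in SYK-WT (3.65, adjusted p = 7.35e-07) and with EGF (3.20, adjusted p = 1.45e-06), with 94.2 and 96.1 FPKM in SYK-KO against 6.12 and 7.27 FPKM in SYK-WT. It fell after EGF in SYK-KO cells (-0.71, adjusted p = 0.00338). Its interval also lists TMEM63A, at up to 12.97 FPKM. NQO2, a quinone reductase related to NQO1, rose after EGF in SYK-WT cells (1.01, adjusted p = 0.000193) and in SYK-KO cells (0.38, adjusted p = 0.0183, and up to 0.154 when either SYK-KO EGF library or SYK-KO replicate 2 was left out), and was lower in SYK-KO EGF than in SYK-WT EGF (-0.59, adjusted p = 0.000915). The list held 1 gene that rose and 4 that fell after EGF in SYK-KO cells, 2 and 3 in SYK-WT cells, and 4 and 2 in each genotype comparison. Among all loci, 6.67% rose and 5.13% fell after EGF in SYK-KO cells, and 14.7% and 12.1% in SYK-WT cells. By genotype, 20.3% of all loci rose and 20.2% fell without EGF, and 21.1% and 22.5% with EGF. Of 10 superoxide and peroxide genes 6 were tested, with 0 up and 3 down after EGF in SYK-KO cells, 2 up and 3 down in SYK-WT cells, and 1 up and 1 down in each genotype comparison. Those last were SOD1, superoxide dismutase, higher (0.60, adjusted p = 0.000415), and CAT, catalase, lower (-0.79, adjusted p = 0.000231) in SYK-KO than in SYK-WT. With EGF the differences were 0.31 for SOD1 (adjusted p = 0.00715, and 0.0553 without SYK-WT EGF replicate 2) and -0.70 for CAT (adjusted p = 0.000381). After EGF in SYK-WT cells SOD1 rose (0.29, adjusted p = 0.0146, and up to 0.0991 without either SYK-WT EGF library). CAT fell after EGF in SYK-WT cells (-0.45, adjusted p = 0.00479) and in SYK-KO cells (-0.35, adjusted p = 0.0215, and up to 0.184 with any 1 of those 4 libraries left out).

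OSGIN1, an oxidative stress induced inhibitor of growth, changed in all 4 comparisons: it rose after EGF and was lower in knockout cells. OSGIN1 (hg19 16:83986826-83999937) measured 12.4 and 12.7 FPKM in SYK-KO EGF, 9.86 and 8.23 FPKM in SYK-KO, 18.6 and 19.6 FPKM in SYK-WT EGF, and 12.2 and 11.9 FPKM in SYK-WT. SYK-WT EGF stood alone at the top and SYK-KO alone at the bottom, with SYK-KO EGF and SYK-WT next to each other in between. EGF raised it by 0.43 in SYK-KO cells (SE 0.09, limma adjusted p = 0.0176) and by 0.62 in SYK-WT cells (SE 0.09, adjusted p = 0.00227), or 1.38-fold and 1.58-fold by means. SYK-KO against SYK-WT gave -0.38 (SE 0.09, adjusted p = 0.0101), and SYK-KO EGF against SYK-WT EGF gave -0.57 (SE 0.09, adjusted p = 0.0018). The rise in SYK-WT cells and the difference with EGF passed in all 15 other settings. With SYK-KO EGF replicate 1, SYK-KO EGF replicate 2 or SYK-KO replicate 2 left out, the rise in SYK-KO cells no longer passed (adjusted p = 0.0952, 0.103 and 0.139, the last with a difference of 0.32). The untreated genotype difference ended without SYK-KO replicate 2 (-0.27) and with only those 2 groups fitted (adjusted p = 0.0529). Library quality weights ended it too (adjusted p = 0.0538).

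HMOX1 rose after EGF in both genotypes and was higher in knockout cells both with and without EGF. HMOX1 (hg19 22:35777059-35790207) measured 136.5 and 158.0 FPKM in SYK-KO EGF, 44.2 and 41.4 FPKM in SYK-KO, 38.1 and 39.6 FPKM in SYK-WT EGF, and 14.3 and 16.2 FPKM in SYK-WT. No 2 groups overlapped, and the untreated knockout cells stood just above the wild-type cells given EGF, a pair of groups not compared by the design. Group means were 147 ± 15.2, 42.8 ± 1.98, 38.8 ± 1.01 and 15.2 ± 1.38 FPKM in that order (SD, n = 2 each).

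EGF raised HMOX1 3.44-fold by means in SYK-KO cells (1.76, SE 0.09, limma adjusted p = 0.000104) and 2.55-fold in SYK-WT cells (1.30, SE 0.09, adjusted p = 0.000153). Knockout cells exceeded wild-type cells 3.79-fold with EGF (1.89, SE 0.09, adjusted p = 1.06e-05) and 2.81-fold without it (1.43, SE 0.09, adjusted p = 4.16e-05). All 4 calls held in all 15 other settings, with differences of 1.65 to 1.86 for EGF in SYK-KO cells, 1.21 to 1.38 for EGF in SYK-WT cells, 1.79 to 2.00 for genotype with EGF and 1.35 to 1.52 for genotype without it. GCLM and TXNRD1 also rose in both EGF comparisons and had SYK-KO EGF at the top, but with SYK-WT EGF above SYK-KO, and their higher level in SYK-KO EGF than in SYK-WT EGF passed in 4 of the 15 other settings and not in the fit of all 8 libraries.

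In the authors' deposited table, which holds 3 of the 4 comparisons, HMOX1 had a q-value of 0.000583 for SYK-WT EGF against SYK-WT, SYK-KO against SYK-WT and SYK-KO EGF against SYK-WT EGF. OSGIN1 had q-values of 0.00197, 0.0918 and 0.00428 in the same order in the authors' deposited table, and SRXN1 0.0147, 0.206 and 0.00428. GCLC passed there only for SYK-KO EGF against SYK-WT EGF, with a q-value of 0.0142 in the authors' deposited table. GCLM and TXNRD1 passed in none of the 3 in the authors' deposited table (lowest q-values 0.26 and 0.11), nor did NQO1, ME1 and NFE2L2. The rises of GCLC, GCLM and TXNRD1 after EGF in SYK-WT cells thus passed in the limma fit only.

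**Figure D2:**
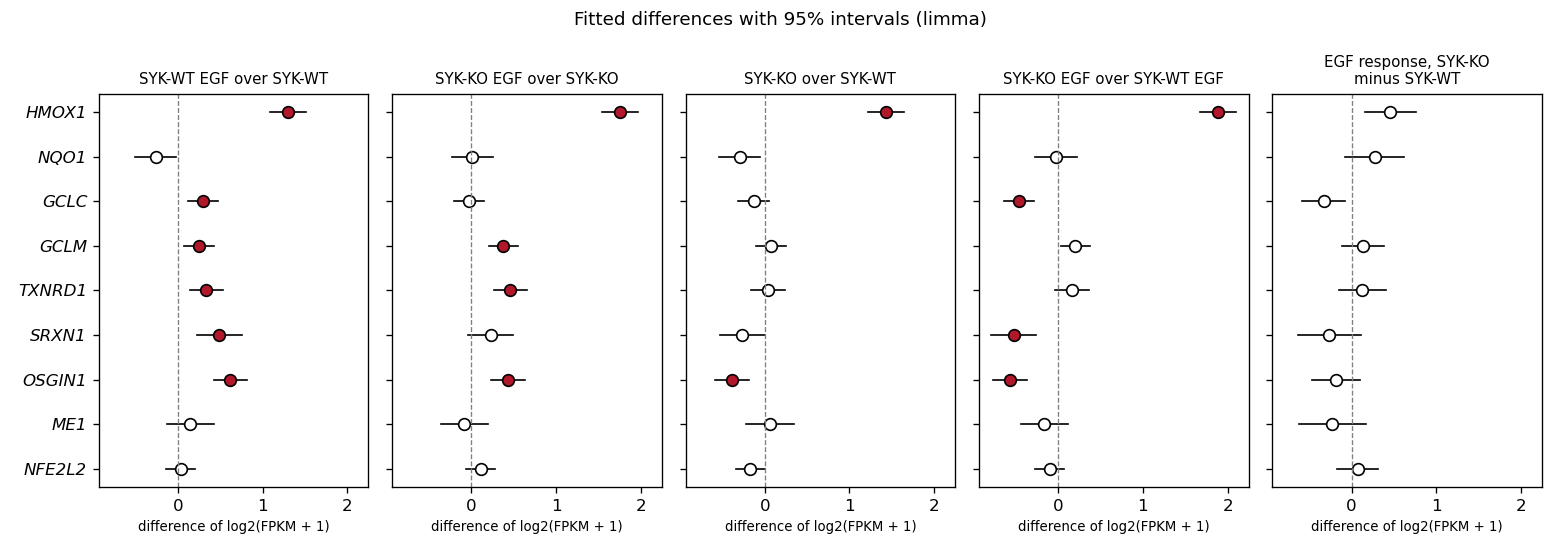
Fitted difference of log2(FPKM + 1) for each member in the 4 comparisons, first group over second as each panel's title gives it. The last panel gives the EGF response of SYK-KO cells minus that of SYK-WT cells. Points are estimates and lines 95% intervals from limma. HMOX1 lies at 1.30 to 1.89 in the 4 comparisons and at 0.46 in the last panel. In the 4 comparisons OSGIN1 lies right of 0 for EGF and left of 0 for genotype.

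Whether EGF acted differently in the 2 genotypes was tested as SYK-KO response minus SYK-WT response. For this, 0 of 9 members passed, while 0.00826% of all loci (1 of 12112) did, and 1070 loci had an unadjusted p under 0.05. HMOX1 had the widest difference, 0.46 on the log2 scale (95% interval 0.16 to 0.76, limma adjusted p = 0.411), with the larger response in SYK-KO cells. GCLC followed at -0.33 (-0.58 to -0.08, adjusted p = 0.465), with the larger response in SYK-WT cells. The other 7 members lay between -0.26 (SRXN1) and 0.27 (NQO1), with adjusted p of 0.648 to 0.858 and intervals that include 0. Leaving out SYK-WT replicate 1, which leaves a single untreated wild-type library and removes the widest pair, gave 5 of 9 members past the threshold and 877 of all loci. The 5 were HMOX1 (0.55, adjusted p = 0.0355), NQO1 (0.43, adjusted p = 0.0397), GCLC (-0.41, adjusted p = 0.0429), SRXN1 (-0.46, adjusted p = 0.0187) and ME1 (-0.43, adjusted p = 0.0399). Without SYK-WT replicate 2, 0 of 9 passed.

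The heme and iron genes around HMOX1 differed by genotype in both directions, as all loci did. Of 23 listed, 22 were tested: 6 rose and 6 fell in SYK-KO against SYK-WT, where 20.3% of all loci rose and 20.2% fell. With EGF, 4 rose and 6 fell, where 21.1% of all loci rose and 22.5% fell. After EGF, 2 rose and 2 fell in SYK-KO cells, and 5 rose and 5 fell in SYK-WT cells. Among all loci, 6.67% rose and 5.13% fell after EGF in SYK-KO cells, and 14.7% and 12.1% in SYK-WT cells. The list medians were -0.13 and -0.12 for EGF in SYK-KO and SYK-WT cells, and 0.04 and -0.04 for genotype without and with EGF. HMOX2, the constitutive heme oxygenase, spanned only 41.7 to 54.9 FPKM. It passed for EGF in SYK-WT cells (0.31, adjusted p = 0.0124) and for SYK-KO against SYK-WT (0.20, adjusted p = 0.0422). Both HMOX2 calls ended when either SYK-WT EGF library was left out, with adjusted p up to 0.0882 and 0.218.

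Both biliverdin reductase genes of the list were higher in knockout cells, as HMOX1 was. BLVRA, biliverdin reductase A, measured 51.3 and 44.5 FPKM in SYK-KO EGF, 46.2 and 42.4 FPKM in SYK-KO, 21.2 and 22.8 FPKM in SYK-WT EGF, and 14.0 and 13.7 FPKM in SYK-WT. It was higher by 1.61 without EGF (adjusted p = 1.81e-05) and by 1.09 with it (adjusted p = 0.000112), and it rose after EGF in SYK-WT cells (0.63, adjusted p = 0.00206). In SYK-KO cells EGF gave 0.11 for BLVRA (adjusted p = 0.477), where HMOX1 had 1.76. BLVRB, biliverdin reductase B, was higher in SYK-KO than in SYK-WT (0.62, adjusted p = 0.000567) and rose after EGF in SYK-WT cells (0.65, adjusted p = 0.000882). Its difference with EGF (0.25, adjusted p = 0.0252) and its rise in SYK-KO cells (0.28, adjusted p = 0.0453) ended in 3 and 8 of the other settings (adjusted p up to 0.157 and 0.285).

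Heme oxygenase releases iron, and the list holds genes of iron storage, sensing and transport, of which FTH1, IREB2, TFRC and SLC48A1 were chosen for naming after their values were seen. FTL, ferritin light chain, was lower in SYK-KO than in SYK-WT (-1.72, adjusted p = 8.7e-06) and with EGF (-1.62, adjusted p = 1.01e-05), with 508 and 480 FPKM in SYK-KO against 1533 and 1722 FPKM in SYK-WT. FTH1, ferritin heavy chain, lay between 3741 and 4626 FPKM and passed in no comparison. Both ferritins have near-identical copies in the genome, and how their fragments were shared out is not given, so these values are uncertain. ACO1, the iron regulatory protein 1, was lower in SYK-KO EGF than in SYK-WT EGF (-1.07, adjusted p = 7.25e-05), with 8.59 and 9.86 FPKM against 20.9 and 20.01 FPKM, and lower without EGF (-0.92, adjusted p = 0.00014). It fell after EGF by 0.40 in SYK-KO cells (adjusted p = 0.0155) and by 0.25 in SYK-WT cells (adjusted p = 0.0459), calls that ended in 3 and 9 of the other settings (up to 0.135 and 0.217). IREB2, its partner in sensing iron, was lower in SYK-KO than in SYK-WT (-0.52, adjusted p = 0.00134) and with EGF (-0.49, adjusted p = 0.00168). TFRC, the transferrin receptor, was lower in SYK-KO than in SYK-WT (-0.40, adjusted p = 0.0112), and did not pass once SYK-KO replicate 1 was left out (adjusted p = 0.0851). With EGF, TFRC gave -0.39 (adjusted p = 0.0119, and up to 0.0808 without either SYK-WT EGF library or SYK-KO EGF replicate 1). SLC48A1, a heme transporter, was higher in SYK-KO than in SYK-WT (0.68, adjusted p = 0.000946) and with EGF (0.62, adjusted p = 0.00133). ALAS1, the first enzyme of heme synthesis, rose after EGF in both genotypes, by 0.53 in SYK-KO cells (adjusted p = 0.00337) and 0.50 in SYK-WT cells (adjusted p = 0.00223). ALAS1 was lower in SYK-KO than in SYK-WT (-0.35, adjusted p = 0.0057) and with EGF (-0.32, adjusted p = 0.00789, and up to 0.0568 without SYK-WT EGF replicate 1 or SYK-KO EGF replicate 2).

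**Figure D3:**
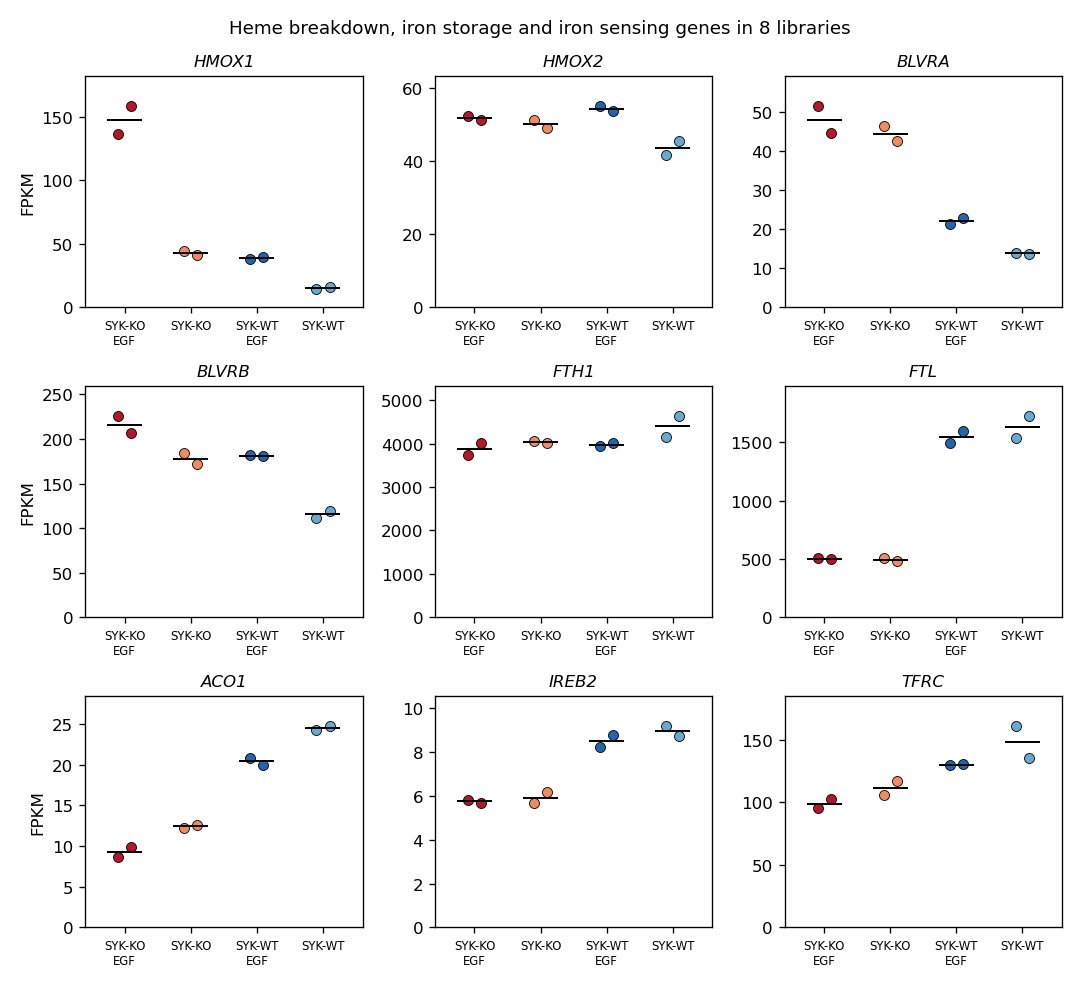
FPKM in the 8 libraries of HMOX1 and 8 genes of heme breakdown, iron storage and iron sensing, each panel with its own axis from 0. Points are libraries and short lines are means of 2. HMOX1 and BLVRA are higher and FTL, ACO1 and IREB2 lower in both knockout groups, while FTH1 differs little.

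Genes of other stress responses in which HMOX1 is often listed were also counted. Among all loci, 6.67% rose and 5.13% fell after EGF in SYK-KO cells, and 14.7% and 12.1% in SYK-WT cells. By genotype, 20.3% of all loci rose and 20.2% fell without EGF, and 21.1% and 22.5% with EGF. Of 12 heat shock genes 9 were tested, with 4 that rose and 0 that fell after EGF in SYK-KO cells, 5 and 1 in SYK-WT cells, and 1 and 2 in each genotype comparison. BAG3, a co-chaperone, rose after EGF in SYK-WT cells (0.46, adjusted p = 0.00163) and in SYK-KO cells (0.30, adjusted p = 0.0177, and up to 0.165 with any 1 of those 4 libraries left out). It was higher in SYK-KO than in SYK-WT (0.20, adjusted p = 0.0301), a call that ended in 8 of the other settings (up to 0.179). Of 7 metallothionein entries 4 were tested, with 1 that rose after EGF in SYK-KO cells and 3 in SYK-WT cells, 3 that rose and 1 that fell in SYK-KO against SYK-WT, and 2 and 1 with EGF. MT1X, a metal-binding metallothionein, rose in all 4 comparisons as HMOX1 did, by 1.44 for EGF in SYK-KO cells (adjusted p = 0.002), 1.48 for EGF in SYK-WT cells (adjusted p = 0.000902), 1.31 for SYK-KO against SYK-WT (adjusted p = 0.000825) and 1.27 with EGF (adjusted p = 0.000892). The entry that fell was MTF1, the metal-sensing transcription factor of the list (-0.56, adjusted p = 0.0026, and -0.62 with EGF, adjusted p = 0.00156). Metallothionein genes are near-identical, so reads may be shared between them.

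**Figure D4:**
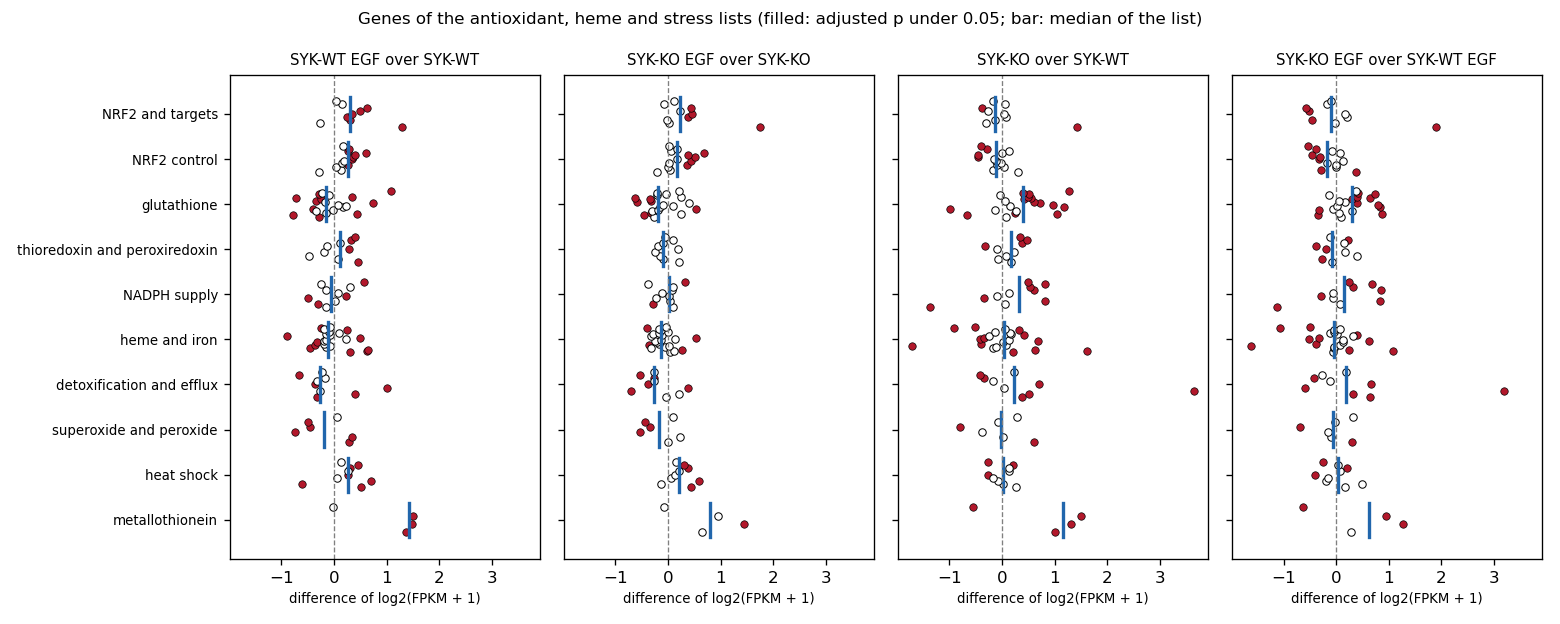
Difference of log2(FPKM + 1) of every tested gene in each list, a panel per comparison; filled points have a limma adjusted p under 0.05 and bars mark list medians. For EGF, all filled points of the NRF2 targets and of the NRF2 control genes lie right of 0, while the glutathione list has 12 filled points right of 0 for SYK-KO over SYK-WT.

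Over the 8 libraries, the genes whose log2(FPKM + 1) was most like HMOX1 by Pearson correlation, among 470 loci with a mean of at least 5 FPKM and an SD of at least 0.5, were CDK5R2 (0.984), FERMT1 (0.983), MMP1 (0.982), MT1X (0.981) and MSN (0.979). CDK5R2, an activator subunit of CDK5, measured 17.4 and 18.5 FPKM in SYK-KO EGF and 5.95 and 6.11 FPKM in SYK-WT. MMP1, an interstitial collagenase, measured 49.0 and 63.6 FPKM in SYK-KO EGF and 0.272 and 0.344 FPKM in SYK-WT. All 5 were highest in SYK-KO EGF and lowest in SYK-WT, as HMOX1 was, which choosing them by likeness to it makes likely. Outside SYK-KO EGF, MMP1 was at 0.272 to 5.75 FPKM and FERMT1 at 2.43 to 5.73 FPKM, so both met the required mean through that group. The 8 points share the 4 groups, so these values describe levels of groups. The middle groups were not in the same order throughout. CDK5R2 and MSN had SYK-KO above SYK-WT EGF, as HMOX1 did, while FERMT1, MMP1 and MT1X had SYK-WT EGF above SYK-KO. For NQO1 the most alike were LPCAT1 (0.868), CAPS (0.851), TMEM101 (0.847), GPR15LG (0.847) and MEGF6 (0.838), each highest in SYK-WT replicate 2, the library in which NQO1 was highest. Choosing them by likeness makes a shared highest library likely too.

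**Figure D5:**
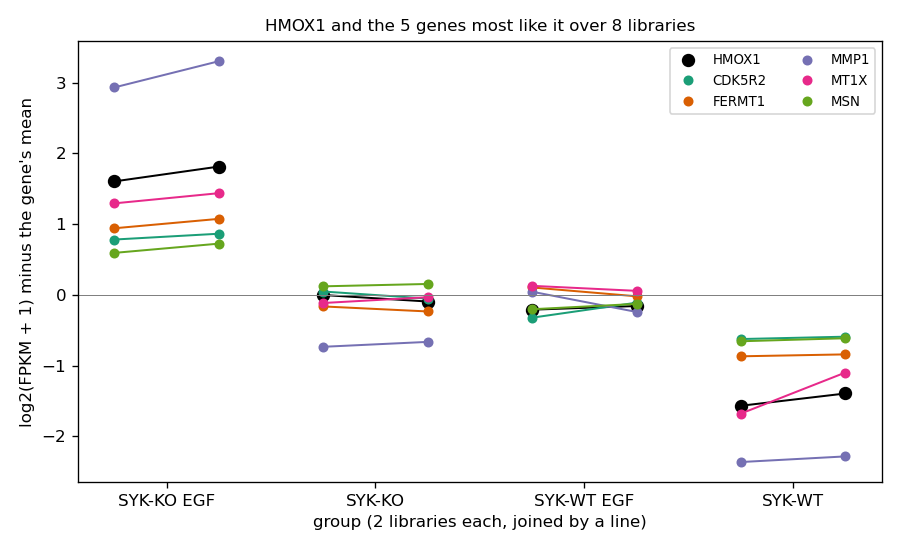
Level of HMOX1 and the 5 genes most like it in the 8 libraries, as log2(FPKM + 1) minus each gene's mean; lines join the 2 libraries of a group. All 6 genes are highest in SYK-KO EGF and lowest in SYK-WT, with MMP1 covering the widest range.

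Within the set, the members differed in the order of their group means. HMOX1 went SYK-KO EGF, SYK-KO, SYK-WT EGF, SYK-WT, with no overlap. GCLM and TXNRD1 went SYK-KO EGF, SYK-WT EGF, SYK-KO, SYK-WT, where the last pair overlapped. GCLC, SRXN1, OSGIN1, ME1 and NFE2L2 had their highest mean in SYK-WT EGF, and NQO1 had its highest mean in SYK-WT. For ME1, NFE2L2 and NQO1 no neighbours in that order that were compared passed the threshold. Some neighbours of ME1 and NFE2L2 were not compared by the design.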

How the data were processed

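Total RNA from 8 libraries of OVISE cells was sequenced in pairs, and groups and replicate numbers come from the sample titles. The FPKM values were made by the authors with TopHat, Cufflinks and Cuffdiff 2.2.1.3 on hg19, per the submitters' processing notes; the scaling of libraries and the use of strand are not given there. The authors' deposited table also holds p-values and q-values for 3 comparisons, of which the q-values are given. Symbols for the 27757 loci came from RefSeq (27222), then GENCODE on GRCh38 (337), and 198 had none.

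FPKM are not counts, so limma 3.58.1 (R 4.3.3, trended variance) was run on log2(FPKM + 1). It covered the 12112 loci that reached 1 FPKM in 2 or more libraries, with 1 mean per group, residual df of 4 and prior df of 3.87. Tests were two-sided, with Benjamini-Hochberg adjustment over all loci of a comparison and a threshold of 0.05. The fit was also run on simulated data that gave a gene the same spread in every group. The real groups differed in spread, so that run does not test the calls given here. Depth was estimated from 1142 loci of low values and assumes that each library was scaled by its own fragments. Tables and plots used python 3.11.15, pandas 2.3.3 and matplotlib 3.10.9.

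Members, lists and tests were chosen with earlier results of these data known. Named beside the members are KEAP1, BACH1, HMOX2 and genes among the 2 with the smallest adjusted p of each list and comparison at a locus with 1 symbol; FTH1, IREB2, TFRC, SLC48A1 and ACTA2 were chosen after their values were seen. Alternatives were a pseudocount of 0.1 or 0.5, no filter, equal library medians, only the 2 groups compared, a replicate block, each library left out, and, chosen after seeing the data, library quality weights. A gene that the naming rule picked is counted in its list but not reported here by name.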

Additional observations from a re-analysis of the deposited data

How the results depend on the processing

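Of 16 calls of members, 7 held in all 15 other settings (HMOX1 in 4 comparisons, OSGIN1 for EGF in SYK-WT cells, OSGIN1 and GCLC for genotype with EGF), 9 ended in at least 1, and 0 reversed. Of 29 member results not called, 16 passed in some setting. Of 121 calls of list genes picked by the naming rule or added to it, 61 held throughout. The added genes included MT2A, a metallothionein not named elsewhere here. The spread between replicates was widest in SYK-WT (a median log2 difference of 0.15, while the other 3 groups had 0.07 to 0.08), and with 2 libraries a group a left-out library leaves 1, assumed to vary like the others.

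Members called for EGF in SYK-WT cells were 3 with no filter, 2 with only those groups fitted and 2 to 8 with a library left out; for EGF in SYK-KO cells 1 to 5; for SYK-KO against SYK-WT 1 with only those groups, 1 with quality weights and 1 to 5 with a library left out; with EGF 3 to 7; for the difference of responses 0 to 5. Loci called for EGF in SYK-WT cells were 3238, but 1254 with only those groups, 1877 with quality weights and 1249 to 5084 with a library left out. For EGF in SYK-KO cells they were 1429, but 2646, 3024 and 316 to 2994. For SYK-KO against SYK-WT they were 4902, but 3007 with only those groups and 2480 to 5915 with a library left out, and with EGF 5277, but 2940 to 6820. For the difference of responses they were 1, but 2 with no filter, 2 with quality weights and 0 to 877 with a library left out. The causes of these changes were not tested.

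Values not called changed sign with a library left out: ME1 (-0.052 to 0.343) and NFE2L2 (-0.057 to 0.126) for EGF in SYK-WT cells, NQO1 (-0.047 to 0.07) and GCLC (-0.068 to 0.011) for EGF in SYK-KO cells, GCLM (-0.009 to 0.156), TXNRD1 (-0.08 to 0.157) and ME1 (-0.135 to 0.261) for SYK-KO against SYK-WT, NQO1 (-0.083 to 0.035) for the same with EGF, and NFE2L2 (-0.016 to 0.167) for the difference of responses.

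The replicate numbers are not stated to mark a shared batch, and same-numbered libraries correlated at -0.381 to 0.27 in their deviations, so they were not taken as pairs. The replicate block changed 0 calls of members (6 called for EGF in SYK-WT cells, 3624 loci).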
